A study of Mus musculus with 46 samples.

Results

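The Wnt pathway genes described here were 39 of the 22380 protein-coding genes of the mouse mm9 annotation GENCODE vM1. They were taken by name: every Wnt or Fzd gene whose symbol goes on with a number, together with Lrp5, Lrp6, Ctnnb1, Axin1, Axin2, Apc, Tcf7, Tcf7l1, Tcf7l2 and Lef1. They comprised 19 ligands, 10 frizzled receptors, 2 co-receptors, 3 destruction complex genes, 4 nuclear factors and Ctnnb1, which encodes beta-catenin. For each gene, peaks were collected that overlapped the gene or the 1 kb on either side of it. The study followed the histone variant H3.3 by ChIP-Seq while mouse embryonic fibroblasts (MEFs) carrying an EGFP reporter of Oct4 were reprogrammed with retroviruses that carried c-Myc, Klf4, Oct4 and Sox2 into induced pluripotent stem cells, or iPSCs. D0 was the fibroblast library in serum medium, and D3 was the unsorted culture on day 3. Cells were sorted on Thy-1, a fibroblast surface marker, on days 6 and 9 (D6T-, D9T- successful; D6T+, D9T+ unsuccessful), and on SSEA-1, a marker of early pluripotency, on days 12 and 16 (D12S+, D16S+ successful; D12S-, D16S- unsuccessful). iPSCs and the embryonic stem cell line ESD3 were the pluripotent cells. The labels place reprogramming cells, iPSCs and ESD3 in a feeder-free medium with LIF, basic FGF, ascorbic acid and CHIR99021, an inhibitor of GSK3, the kinase that marks beta-catenin for destruction. The study's methods also name media without CHIR99021 for reprogramming and for pluripotent cells, so which libraries had this agent is not settled here. A second system turned MEFs, cleared of blood cells by sorting, toward a hematopoietic state with Scl, Lmo2, Runx1 and Bmi1 on OP9 stroma. It gave the libraries MEF, D4 (day 4), and the cKit+ and cKit- fractions labelled as fully transdifferentiated. H3K4me3 and H3K36me3 were profiled in the 7 libraries of the successful route, from D0 to iPSCs.

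Wnt ligands are lipid-modified secreted proteins that bind frizzled receptors together with the co-receptors Lrp5 or Lrp6. Without a ligand, the destruction complex built on Axin1, Axin2 and Apc captures beta-catenin for phosphorylation by GSK3 and for degradation. With a ligand, beta-catenin builds up and enters the nucleus, where it works with the DNA-binding factors Tcf7, Tcf7l1, Tcf7l2 and Lef1. Axin2 is a widely used target gene of this branch, and Wnt5a mostly acts through branches that do not use beta-catenin. In mouse pluripotent cells Tcf7l1, also called Tcf3, is known as a repressor that limits the pluripotency network, and inhibition of GSK3 supports self-renewal. H3.3 is laid down outside of DNA replication and is found at active start sites, enhancers and along transcribed genes. H3K4me3 marks start sites and H3K36me3 marks the bodies of transcribed genes.

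The value used for a gene in a library was its summed peak score, the tags in all peaks that overlapped its window, scaled to 10 M tags per library. It grows with the number and breadth of peaks, so it is compared between libraries for 1 gene and, between genes, only per kb. Each group had 1 library, so no difference was tested, and a gene was called higher or lower when the sum plus 10 differed at least 2-fold. Intervals given are exact 95% Poisson intervals, which cover the counting of tags in the listed peaks only. A gene without a peak may still hold tags below the peak caller's limit, which was a score between 3.54 and 5.59 in the 16 H3.3 libraries.

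The H3.3 libraries held 18.7 to 91.8 M tags and 25637 to 108179 peaks. Between 1.65% (cKit+) and 37.2% (D4) of the tags lay in peaks, and D12S+ and D16S+ stood low on the reprogramming route with 6.93% and 4.88%. The fibroblast markers had H3.3 peaks where the labels call for them at the ends of the route, at 7 of 7 genes in D0, 7 of 7 in MEF, 1 of 7 in iPSCs and 0 of 7 in ESD3. Pluripotency markers carried peaks at 7 of 7 genes in D16S+, iPSCs and ESD3 but 3 of 7 in D0. In cKit+, 2 of the 6 hematopoietic markers had a peak and Kit itself had none, while 4 of 7 fibroblast markers had one. The cKit libraries are therefore called by their labels only.

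The start sites of these genes were rich in CpG. The window from 250 bases before to 50 bases after the annotated gene start held a median of 30.0 CpG dinucleotides, against 11.0 over all 22380 protein-coding genes, and 35 of the 39 had at least 10, a state found in 54.0% of all genes. The lowest count was 5 at Ctnnb1 and the highest 58 at Wnt9a. The promoters of 4 genes are shown, with CpG in capitals, because their genes took different courses below: Wnt5a lost its peaks, Axin2 lost and regained them, Wnt3a had them in pluripotent but not in fibroblast libraries, and Tcf7l1 had its widest cover in iPSCs. They are in mm9, written along the gene: Wnt5a at chr14:29317686-29317985 on the plus strand, Axin2 at chr11:108781413-108781712 on the plus strand, Wnt3a at chr11:59104205-59104504 on the minus strand and Tcf7l1 at chr6:72739199-72739498 on the minus strand.
Wnt5a promoter: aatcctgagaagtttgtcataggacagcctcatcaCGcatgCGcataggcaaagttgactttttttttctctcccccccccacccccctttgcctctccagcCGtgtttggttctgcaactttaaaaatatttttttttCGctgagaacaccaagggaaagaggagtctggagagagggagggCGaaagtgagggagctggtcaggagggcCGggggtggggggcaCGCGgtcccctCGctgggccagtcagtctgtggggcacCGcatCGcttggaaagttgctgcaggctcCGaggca
Axin2 promoter: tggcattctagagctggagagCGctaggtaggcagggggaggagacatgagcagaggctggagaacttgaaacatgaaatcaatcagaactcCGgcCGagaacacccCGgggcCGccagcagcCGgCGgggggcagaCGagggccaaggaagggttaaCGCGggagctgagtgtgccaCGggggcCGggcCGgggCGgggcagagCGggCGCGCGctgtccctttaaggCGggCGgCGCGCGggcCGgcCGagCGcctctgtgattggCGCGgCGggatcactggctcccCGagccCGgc
Wnt3a promoter: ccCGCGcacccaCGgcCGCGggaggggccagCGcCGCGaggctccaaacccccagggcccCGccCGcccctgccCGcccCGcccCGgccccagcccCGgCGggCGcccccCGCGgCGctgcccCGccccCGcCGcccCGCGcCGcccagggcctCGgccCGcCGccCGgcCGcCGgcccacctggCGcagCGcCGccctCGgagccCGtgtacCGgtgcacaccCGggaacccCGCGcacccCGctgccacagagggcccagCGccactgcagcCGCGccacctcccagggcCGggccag
Tcf7l1 promoter: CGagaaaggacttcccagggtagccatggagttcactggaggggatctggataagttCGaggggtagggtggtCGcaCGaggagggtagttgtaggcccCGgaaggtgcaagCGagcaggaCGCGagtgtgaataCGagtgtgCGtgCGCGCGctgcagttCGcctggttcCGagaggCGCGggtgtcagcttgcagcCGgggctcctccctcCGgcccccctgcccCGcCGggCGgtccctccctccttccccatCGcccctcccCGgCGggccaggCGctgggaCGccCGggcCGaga
Wnt5a had the fewest CpG of these, 12, beside 31 at Axin2, 45 at Wnt3a and 29 at Tcf7l1. The letters CTTTGAT, the core that TCF and LEF factors bind, were searched on both strands and stood in 3 of the 39 windows (Tcf7, Wnt11 and Wnt8a) and in 3.47% of all promoters. TGANTCA, the AP-1 motif, stood in 1 (Wnt5b) against 6.93% of all promoters, and ATGCAAAT, the octamer bound by Oct4, in none against 1.72%.

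Most H3.3 peaks on these genes lay away from their starts, so 3 peak centres are shown as well. In D0, 111 of the 178 peaks on the 39 genes were intronic, 37 touched an exon further in, 27 lay within 1 kb of the start and 3 were past the end. In iPSCs the counts were 97 intronic, 27 exonic, 30 at the start and 4 past the end, out of 158. Long genes held many of the peaks, with 28 on Tcf7l2 and 21 on Tcf7l1 in D0. Counted by gene, 21 of the 28 with a peak in D0 had one within 1 kb of the start. That was 75.0%, beside 65.3% of all genes with a peak. In iPSCs 20 of 31 did, 64.5% beside 75.0%. Each sequence below is the central 200 bases of the strongest peak away from the start site, on the plus strand of mm9, with matches to the 3 motifs in capitals: Wnt5a in D0 at chr14:29335861-29336060, Fzd3 in D6T- at chr14:65837835-65838034 and Tcf7l1 in iPSCs at chr6:72683416-72683615.
Wnt5a, peak over an exon: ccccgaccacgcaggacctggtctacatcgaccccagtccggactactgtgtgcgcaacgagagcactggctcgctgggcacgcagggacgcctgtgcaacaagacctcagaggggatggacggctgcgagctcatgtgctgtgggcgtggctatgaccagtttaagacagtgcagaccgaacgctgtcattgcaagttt
Fzd3, intronic peak: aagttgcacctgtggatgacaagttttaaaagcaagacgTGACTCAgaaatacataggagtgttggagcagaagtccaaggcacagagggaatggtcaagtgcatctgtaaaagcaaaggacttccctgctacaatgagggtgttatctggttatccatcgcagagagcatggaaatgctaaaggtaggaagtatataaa
Tcf7l1, intronic peak: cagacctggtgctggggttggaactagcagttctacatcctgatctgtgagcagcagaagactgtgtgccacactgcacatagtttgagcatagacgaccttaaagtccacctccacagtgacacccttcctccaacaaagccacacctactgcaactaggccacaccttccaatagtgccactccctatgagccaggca
The Wnt5a peak ran from 15.36 to 20.69 kb past the start with a score of 81.6 and was 4.57-fold over input. The Fzd3 peak, from 41.45 to 45.28 kb, had a score of 77.4 and an AP-1 match within the bases shown, and the Tcf7l1 peak, from 52.15 to 59.31 kb, had a score of 83.6. Neither the Wnt5a nor the Tcf7l1 centre held any of the 3 motifs in the bases shown. Over the central 500 bases of all peaks on these genes, CTTTGAT stood in 5.62% of 178 peaks in D0 and 6.96% of 158 in iPSCs, and over every H3.3 peak of those libraries in 7.71% and 7.54%. AP-1 stood in 21.3% of the D0 peaks and 18.4% of the iPSC peaks of these genes, beside 21.4% and 14.7% of all peaks.

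Which of these genes carried H3.3 at all is the first comparison. In D0, 28 of 39 had at least 1 peak, as did 61.8% of all protein-coding genes, and in iPSCs it was 31 of 39 beside 61.1%. All 4 nuclear factors, Ctnnb1, Axin1 and Apc had a peak in each of the 12 reprogramming libraries, and so did Fzd5, Fzd7, Wnt5b and Wnt10b, 11 genes in all; 27.9% of all genes did. Wnt2 and Wnt9b had none in those 12, beside 23.0% of all genes. The number was lowest on the route in D12S+ and D16S+, with 19 of 39 each (all genes 50.2% and 43.3%), the 2 libraries with the fewest peaks. There, 7 and 8 of the 19 ligands and 3 and 4 of the 10 receptors had a peak, and all 4 nuclear factors did. The nuclear factors are also the longer genes, with a median of 138 kb against 22.2 kb for ligands and 4.59 kb for receptors. The plot of levels by gene and library shows these as grey cells among the ligands and receptors.

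**Figure D1:**
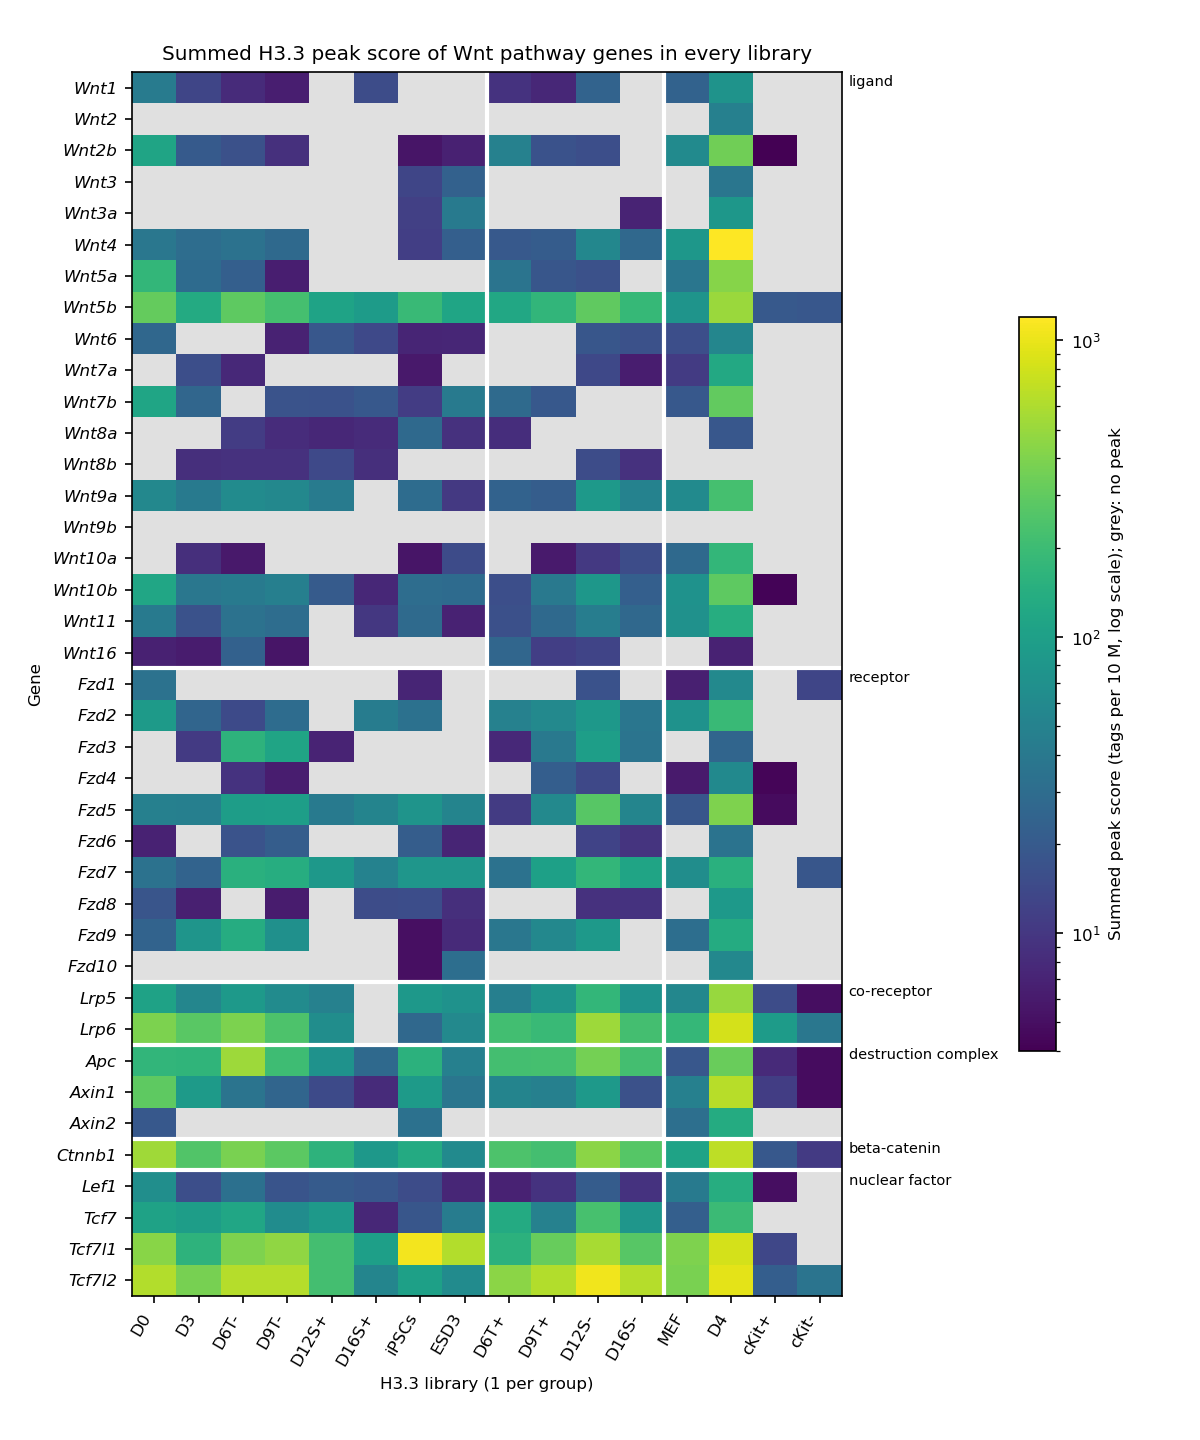
Summed H3.3 peak score (tags per 10 M, colour on a log scale) of the 39 genes, by role, in the 16 libraries, 1 per group; grey cells have no peak, and white lines separate the roles and, from left to right, the route with ESD3, the unsuccessful fractions and the transdifferentiation libraries. Tcf7l1 is brightest in iPSCs (1079) on the route, Tcf7l2 in D12S- (1059) among the reprogramming libraries, and the D4 column is bright throughout.

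Between D0 and iPSCs, the Wnt pathway genes were more often lower than higher in H3.3. Of the 39 genes, 16 were called lower, among them Wnt5a, Lrp6, Ctnnb1, Axin1, Tcf7, Tcf7l2 and Lef1, beside 24.4% of all protein-coding genes. Called higher were 5 (Fzd7, Tcf7l1, Wnt3, Wnt3a and Wnt8a), a share close to the 12.6% of all genes. The median log2 ratio over the 39 genes was -0.40, beside 0.00 over all genes. Over genes with a peak in both libraries it was -0.44 in all genes and -1.16 in the 25 of these, so the libraries as wholes were shifted too. Measured from that -0.44, 11 of the 39 were lower and 10 higher, beside 17.6% and 19.7% of all genes. With the same number of peaks kept in each library the counts stayed at 16 lower and 5 higher, beside 23.4% and 15.2% of all genes. With only peaks at least 4-fold over input they were 19 and 0, beside 38.9% and 3.50% of all genes. That limit was passed by 55.1% of all D0 peaks but 22.6% of all iPSC peaks. With MEF in place of D0, 11 were lower and 9 higher in iPSCs, beside 9.12% and 28.9% of all genes. With ESD3 in place of iPSCs, 19 were lower and 4 higher than in D0, beside 38.3% and 6.24%.

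The 2 fibroblast libraries (D0, MEF) and the 2 pluripotent ones (iPSCs, ESD3) were compared as pairs, and 7 genes were at least 2-fold lower in both pluripotent libraries than in either fibroblast library. These were Wnt1, Wnt2b, Wnt5a, Wnt10b, Lrp6, Tcf7l2 and Lef1, and 6.86% of all genes met the same rule. Wnt3 and Wnt3a alone were at least 2-fold higher in both, a pattern met by 4.27% of all genes. Tcf7l1 was also higher in both, but its ESD3 sum of 620 was less than 2 times the D0 sum of 437.

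**Figure D2:**
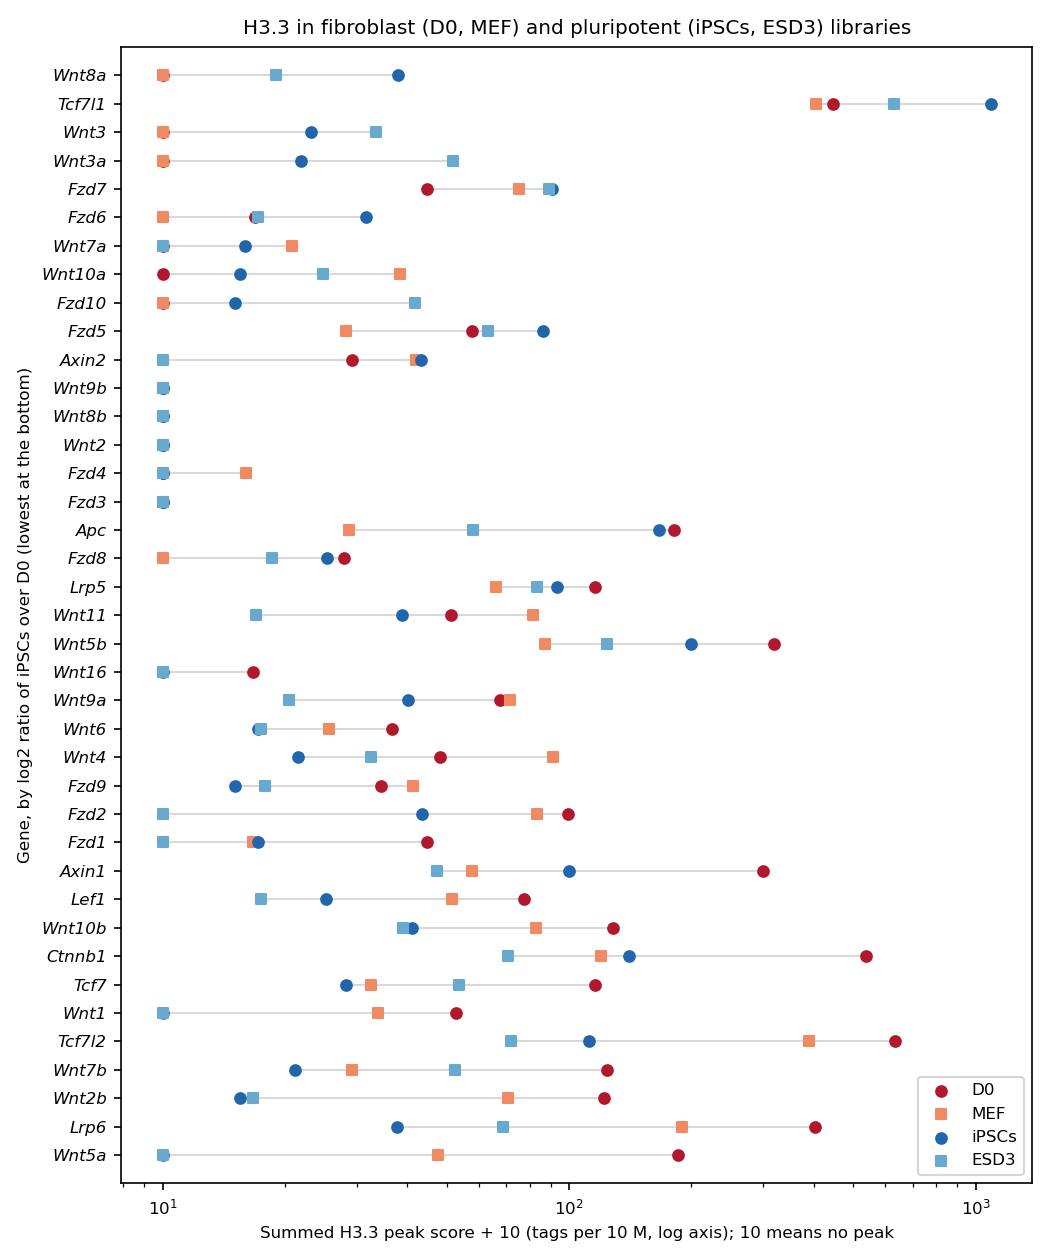
Summed H3.3 peak score plus 10 (log axis, tags per 10 M) of each gene in D0 and MEF (red and orange) and in iPSCs and ESD3 (dark and light blue), 1 library each, sorted by the ratio of iPSCs to D0; a marker at 10 has no peak, and markers there lie on top of each other. At the bottom Wnt5a has 175 and 37.5 in the fibroblast libraries and no peak in the pluripotent ones, and near the top Tcf7l1 has both blue markers to the right of both red ones.

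Among the ligands, Wnt5a showed the largest loss. Wnt5a (chr14:29317936-29340633), a ligand abundant in mesenchymal cells, had an H3.3 sum of 175 and 29.6 in D0 and D3, 22.5 and 6.49 in D6T- and D9T-, no peak in D12S+ or D16S+ and no peak in iPSCs. Its level was thus highest in the starting fibroblasts, was already lower on day 3 and was below peak calling from D12S+ on. In the other reprogramming libraries it had no peak in ESD3, 35.8 and 18.5 in D6T+ and D9T+ and 16.3 in D12S- but no peak in D16S-, and in the second system it had 37.5 and 428 in MEF and D4 and no peak in cKit+ or cKit-. The 7 D0 peaks covered 50.6% of its window. On the log2 scale of the sum plus 10 the difference from D0 to iPSCs was -4.21, and it was between -5.17 and -3.77 under the 7 alternatives computed for it. These did not put MEF in place of D0, and Wnt5a was itself called lower in MEF (37.5) than in D0.

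Wnt2b, a ligand of mesenchyme, followed with a sum of 112 and 20.2 in D0 and D3, 16.5 and 8.80 in D6T- and D9T-, no peak in D12S+ or D16S+ and 5.47 in iPSCs. Elsewhere it was 6.71 in ESD3, 48.9 and 16.7 in D6T+ and D9T+ and 15.6 in D12S- but no peak in D16S-, and transdifferentiation gave 60.9 and 351 in MEF and D4 and 4.09 in cKit+ but no peak in cKit-. Both fibroblast libraries were thus above every later library of the route, and the log2 difference from D0 to iPSCs was -2.98 (counting interval -3.22 to -2.69). Wnt7b, a ligand of epithelia, did not fade evenly: its sum was 114 and 26.5 in D0 and D3, 17.1 in D9T- but no peak in D6T-, 16.7 and 19.2 in D12S+ and D16S+ and 11.1 in iPSCs. It had 42.3 in ESD3, 29.0 and 19.1 in D6T+ and D9T+ and no peak in D12S- or D16S-, and the transdifferentiation libraries had 19.3 and 305 in MEF and D4 and no peak in cKit+ or cKit-. ESD3 thus stood above iPSCs and MEF below D0, so the difference of -2.55 between D0 and iPSCs did not hold between MEF and ESD3. An intronic Wnt7b peak about 39 kb past the start scored 31.7 in D0 and 16.7 in D12S+, where it was the only one.

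Wnt4, a ligand of epithelial and gonadal development, had the highest sum of any ligand, 1177 in D4. That sum rested on 1 peak with a score of 992 that began 19.82 kb past the start and ended 77.33 kb past it, although the gene is 22.2 kb long. Counting only the share of each peak inside the window, the D4 sum was 216. On the route Wnt4 had 38.0 and 30.5 in D0 and D3, 34.6 and 28.3 in D6T- and D9T-, no peak in D12S+ or D16S+ and 11.5 in iPSCs, and otherwise 22.5 in ESD3, 19.6 and 20.9 in D6T+ and D9T+ and 55.8 and 27.3 in D12S- and D16S-. The MEF library held 81.4, and neither cKit fraction had a peak. D12S+ and D16S+ were the 2 libraries of the route with none, and iPSCs and ESD3 were both below D0.

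The ligands Wnt3, Wnt3a and Wnt8a had peaks in both pluripotent libraries and in neither fibroblast library, all with small sums. Wnt3 had 13.1 in iPSCs, 23.4 in ESD3 and 37.6 in D4 and no peak in the other 13 H3.3 libraries. Wnt3a, the ligand most often used to activate beta-catenin in culture, had 11.9 in iPSCs, 41.9 in ESD3, 7.07 in D16S- and 82.8 in D4 and nothing elsewhere. Wnt8a had no peak in D0 or D3, 11.1 and 8.34 in D6T- and D9T-, 7.55 and 8.0 in D12S+ and D16S+ and 27.9 in iPSCs, besides 9.02 in ESD3, 8.38 in D6T+ and 18.8 in D4. Of the 2 Wnt3a peaks of iPSCs, the one with a score of 6.92 lay 0.67 to 1.3 kb before the start, upstream of the promoter shown above, and the other, with 4.98, was intronic. Wnt1 and Wnt10b, which lie next to each other on chromosome 15, were both higher in fibroblasts, Wnt1 with 42.7 in D0, 23.9 in MEF, no peak in iPSCs and no peak in ESD3 and Wnt10b with 118 in D0, 73.0 in MEF, 31 in iPSCs and 29.1 in ESD3. Wnt5b had a peak in all 16 libraries, from 18.7 in cKit- to 512 in D4, but its annotated model of 112 kb also holds Fbxl14, and without peaks shared with that gene its D0 sum was 257 rather than 309. The remaining ligands were low on the route: Wnt6, Wnt7a, Wnt8b, Wnt10a, Wnt11 and Wnt16 stayed at or below 41.1 and Wnt9a at or below 62.6 in all 7 route libraries. Wnt2 had a peak in D4 only, and Wnt9b had none in any of the 16.

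Among the receptors, Fzd3 and Fzd7 were higher in the middle of the route than in D0. Fzd3, a receptor best known from axon guidance and planar polarity, had 10.6 in D3 but no peak in D0, 159 and 111 in D6T- and D9T-, 7.11 in D12S+ but no peak in D16S+ and no peak in iPSCs. It had no peak in ESD3, 7.68 and 39.9 in D6T+ and D9T+ and 98.7 and 35.6 in D12S- and D16S-, and the second system showed 25.8 in D4 but no peak in MEF and no peak in cKit+ or cKit-. The signal was thus highest in D6T- and D9T- and no peak was called in D0, MEF, D16S+, iPSCs or ESD3. Its main peak lay in an intron about 43 kb past the start, the place of the sequence with the AP-1 match above. D3, D6T-, D9T-, D9T+, D12S- and D16S- each had a peak in that stretch. Fzd7, a receptor with a known role in embryonic stem cells, had 34.7 and 24.8 in D0 and D3, 148 and 139 in D6T- and D9T-, 84.0 and 49.8 in D12S+ and D16S+ and 80.9 in iPSCs. It had 79.3 in ESD3, 34.2 and 103 in D6T+ and D9T+ and 176 and 113 in D12S- and D16S-, and the second system gave 65.4 and 148 in MEF and D4 and 18.4 in cKit- but no peak in cKit+. Among the reprogramming libraries Fzd7 was thus lowest in D3, D6T+ and D0. The log2 difference from D0 to iPSCs was 1.02 (counting interval 0.75 to 1.29), but MEF, at 65.4, was less than 2-fold below both pluripotent libraries. Counting the share inside the window, D0 had 26.6 and iPSCs 54.7, as the Fzd7 peaks ran past this short gene of 4.80 kb.

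The 3 receptors with the largest difference from D0 to iPSCs were Fzd1, Fzd2 and Fzd9, all lower, and all 3 rested on small or extended peaks. Fzd1 had 34.7 in D0 but no peak in D3, no peak in D6T- or D9T-, no peak in D12S+ or D16S+ and 7.17 in iPSCs. It had no peak in ESD3, no peak in D6T+ or D9T+ and 16.8 in D12S- but no peak in D16S-, and in the second system it had 6.64 and 58.4 in MEF and D4 and 13.3 in cKit- but no peak in cKit+. Fzd2 had 89.6 and 25.9 in D0 and D3, 14.5 and 30.2 in D6T- and D9T-, 44.3 in D16S+ but no peak in D12S+ and 33.4 in iPSCs. It had no peak in ESD3, 49.1 and 59.0 in D6T+ and D9T+ and 83.8 and 37.8 in D12S- and D16S-, and transdifferentiation gave 73.3 and 193 in MEF and D4 and no peak in cKit+ or cKit-. Its D0 peaks lay mostly outside the gene, one of them 3.85 to 6.98 kb past the start of this gene of 3.63 kb, and without the 1 kb flanks its difference of -1.20 reversed to 1.06. Fzd9 had 24.5 and 78.6 in D0 and D3, 137 and 70.7 in D6T- and D9T-, no peak in D12S+ or D16S+ and 5.10 in iPSCs. It had 7.86 in ESD3, 38.6 and 57.9 in D6T+ and D9T+ and 88.2 in D12S- but no peak in D16S-, and the transdifferentiation libraries had 31.2 and 134 in MEF and D4 and no peak in cKit+ or cKit-. The sums of D3, D6T- and D9T- each came from 1 peak that ran past the end of Fzd9 into a neighbouring gene, and the share inside the window was 26.4, 18.6 and 18.3, close to the 24.5 of D0.

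Fzd5, a receptor used in retina and gut, had the highest sum of any receptor, 401 in D4. On the route it was 47.8 and 46.5 in D0 and D3, 96.6 and 97.8 in D6T- and D9T-, 42.2 and 52.0 in D12S+ and D16S+ and 76.0 in iPSCs. It had 53.0 in ESD3, 10.7 and 59.0 in D6T+ and D9T+ and 272 and 54.2 in D12S- and D16S-, and the second system showed 18.3 and 401 in MEF and D4 and 4.69 in cKit+ but no peak in cKit-. The values of D12S- and D4 came down to 124 and 118 inside the window, beside 96.6 in D6T- and 97.8 in D9T-. Per kb of window and inside it, Fzd5 (7.61) and Fzd7 (8.04) had the densest H3.3 of the 39 genes in iPSCs, and in ESD3 the same 2 genes led with 5.76 and 8.12. In D0 the densest were Ctnnb1 with 10.3, Wnt10b with 7.55 and Wnt5a with 7.06. Fzd10 was seen in pluripotent libraries, with 5.10 in iPSCs and 31.7 in ESD3 from a peak before the start, besides 57.7 in D4. Fzd4, Fzd6 and Fzd8 stayed at or below 21.6 on the route.

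The 2 co-receptors differed. Lrp6 (chr6:134396494-134516983) had 392 and 276 in D0 and D3, 391 and 245 in D6T- and D9T-, 66.0 in D12S+ but no peak in D16S+ and 27.7 in iPSCs. It had 58.8 in ESD3, 213 and 189 in D6T+ and D9T+ and 521 and 220 in D12S- and D16S-, and in the second system it had 180 and 832 in MEF and D4 and 90.9 and 38.2 in cKit+ and cKit-. It was thus high in fibroblasts, on days 3 to 9 and in the unsuccessful fractions, and low in SSEA-1+ and pluripotent cells. The log2 difference from D0 to iPSCs was -3.42 (counting interval -3.63 to -3.20), and alternatives gave -4.95 to -2.47. These did not put MEF in place of D0, and Lrp6 was itself called lower in MEF (180) than in D0 (392). Lrp5 had 106 and 54.8 in D0 and D3, 86.0 and 63.3 in D6T- and D9T-, 49.3 in D12S+ but no peak in D16S+ and 83.4 in iPSCs. It had 73.3 in ESD3, 47.2 and 76.4 in D6T+ and D9T+ and 176 and 72.9 in D12S- and D16S-, and transdifferentiation gave 55.9 and 502 in MEF and D4 and 15.2 and 4.94 in cKit+ and cKit-. Apart from D16S+, which had the fewest peaks, Lrp5 stayed between 49.3 and 106 on the route and was not called different between D0 and iPSCs. Lrp6 is 120 kb long and Lrp5 102 kb, so both had similar room for peaks.

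In the destruction complex, Axin1 and Axin2 both fell after D0 and were higher again in iPSCs than in D16S+, but Axin1 kept a peak throughout. Axin1, the scaffold present in most cells, had 290 and 90.3 in D0 and D3, 36 and 25.9 in D6T- and D9T-, 14.4 and 8.0 in D12S+ and D16S+ and 89.8 in iPSCs. It had 37.2 in ESD3, 51.9 and 48.1 in D6T+ and D9T+ and 84.7 and 16.6 in D12S- and D16S-, and the transdifferentiation libraries had 47.8 and 657 in MEF and D4 and 11.2 and 4.85 in cKit+ and cKit-. The log2 difference from D0 to iPSCs was -1.59 (counting interval -1.76 to -1.42). MEF was 2.38 lower than D0 on the same scale and below iPSCs, so the 2 fibroblast libraries enclosed the pluripotent iPSC value. Axin2, the scaffold that beta-catenin itself induces, had 19.3 in D0, 32.0 in MEF, 33.3 in iPSCs and 133 in D4 and no peak in the other 12 H3.3 libraries, ESD3 included. In D0 the peak lay over the start, from 0.88 kb before to 0.75 kb after it, and covered the promoter shown above. In iPSCs a peak of 6.92 began 0.24 kb past the start and a stronger one of 21.0 began 1.71 kb past it. Axin2 thus had no H3.3 peak from D3 to D16S+ and had peaks again in iPSCs. Its D0 sum of 19.3 was small, and the lowest peak score in D3 was 5.03. A lower level of Axin2 may therefore lie below peak calling. Apc, the tumour suppressor that holds beta-catenin in the complex, had 171 and 166 in D0 and D3, 516 and 206 in D6T- and D9T-, 73.5 and 28.0 in D12S+ and D16S+ and 156 in iPSCs. It had 48.1 in ESD3, 217 and 222 in D6T+ and D9T+ and 366 and 217 in D12S- and D16S-, and the second system showed 18.7 and 323 in MEF and D4 and 7.85 and 4.85 in cKit+ and cKit-. The 516 of D6T- was its highest value in any library, of which 195 came from 1 peak 72.22 to 84.32 kb past the start.

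Ctnnb1, the gene of beta-catenin (chr9:120838334-120869625), had 529 and 255 in D0 and D3, 378 and 285 in D6T- and D9T-, 161 and 83.2 in D12S+ and D16S+ and 130 in iPSCs. It had 60.8 in ESD3, 245 and 217 in D6T+ and D9T+ and 442 and 269 in D12S- and D16S-, and in the second system it had 110 and 686 in MEF and D4 and 19.4 and 10.5 in cKit+ and cKit-. By these sums D0 was the highest of the reprogramming libraries and ESD3 the lowest, with a log2 difference of -1.95 (counting interval -2.08 to -1.81) from D0 to iPSCs. The end of Ctnnb1 lies beside Ulk4, however, and 1 D0 peak with a score of 426 ran from 16.9 to 44.1 kb past the start, beyond the gene's 31.3 kb. Without peaks shared with Ulk4 the D0 sum was 103 and that of iPSCs 99.9, and the difference was -0.04. Without them D12S- (143), D16S- (137), D6T- (135) and D9T- (112) were also above D0. Inside the window the D0 and iPSC sums were 344 and 125, and D12S- stood above D0 with 403.

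Among the nuclear factors, Tcf7l1 was higher and Tcf7l2 lower in iPSCs than in D0. In between, both were lower in D3 than in D0 and both fell from D9T- to D16S+. Tcf7l1 (chr6:72576372-72739248) had 437 and 161 in D0 and D3, 399 and 464 in D6T- and D9T-, 219 and 101 in D12S+ and D16S+ and 1079 in iPSCs. It had 620 in ESD3, 155 and 318 in D6T+ and D9T+ and 568 and 275 in D12S- and D16S-, and transdifferentiation gave 396 and 834 in MEF and D4 and 13.4 in cKit+ but no peak in cKit-. Tcf7l2 (chr19:55816300-56008144) had 624 and 371 in D0 and D3, 634 and 633 in D6T- and D9T-, 216 and 53.6 in D12S+ and D16S+ and 102 in iPSCs. It had 62.0 in ESD3, 450 and 628 in D6T+ and D9T+ and 1059 and 635 in D12S- and D16S-, and the transdifferentiation libraries had 379 and 960 in MEF and D4 and 22.0 and 35.9 in cKit+ and cKit-. Among the 12 reprogramming libraries, Tcf7l1 thus stood highest in iPSCs and ESD3, and Tcf7l2 lowest in D16S+, ESD3 and iPSCs and highest in D12S-. The D4 sum of Tcf7l1, 834, lay between those of iPSCs and ESD3. The log2 difference from D0 to iPSCs was 1.28 (counting interval 1.19 to 1.38) for Tcf7l1 and -2.50 (-2.65 to -2.36) for Tcf7l2.

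In iPSCs 41 peaks covered 52.0% of the Tcf7l1 window, against 21 peaks and 17.9% in D0. Of the 41, 16 met a D0 peak (39.0%, beside 45.1% of all iPSC peaks in protein-coding genes) and 25 met an ESD3 peak (61.0%, beside 34.8%). From the other side, 34 of the 38 ESD3 peaks met one of iPSCs (89.5%, beside 59.6%). These iPSC peaks were broad and of low enrichment: 7 of the 41 were at least 4-fold over input, against 16 of 21 in D0 and 21 of 38 in ESD3. With only such peaks the D0 to iPSC difference of Tcf7l1 reversed to -1.53, while the other alternatives gave 1.25 to 1.72. That range does not hold ESD3 in place of iPSCs, where the sum of 620 was less than 2 times the 437 of D0. Tcf7l2 went from 28 peaks over 21.5% of its window in D0 to 10 peaks over 4.12% in iPSCs and 6 over 1.75% in ESD3. Of the 28 D0 peaks, 5 (17.9%, beside 34.4% of all D0 peaks in protein-coding genes) met an iPSC peak.

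**Figure D3:**
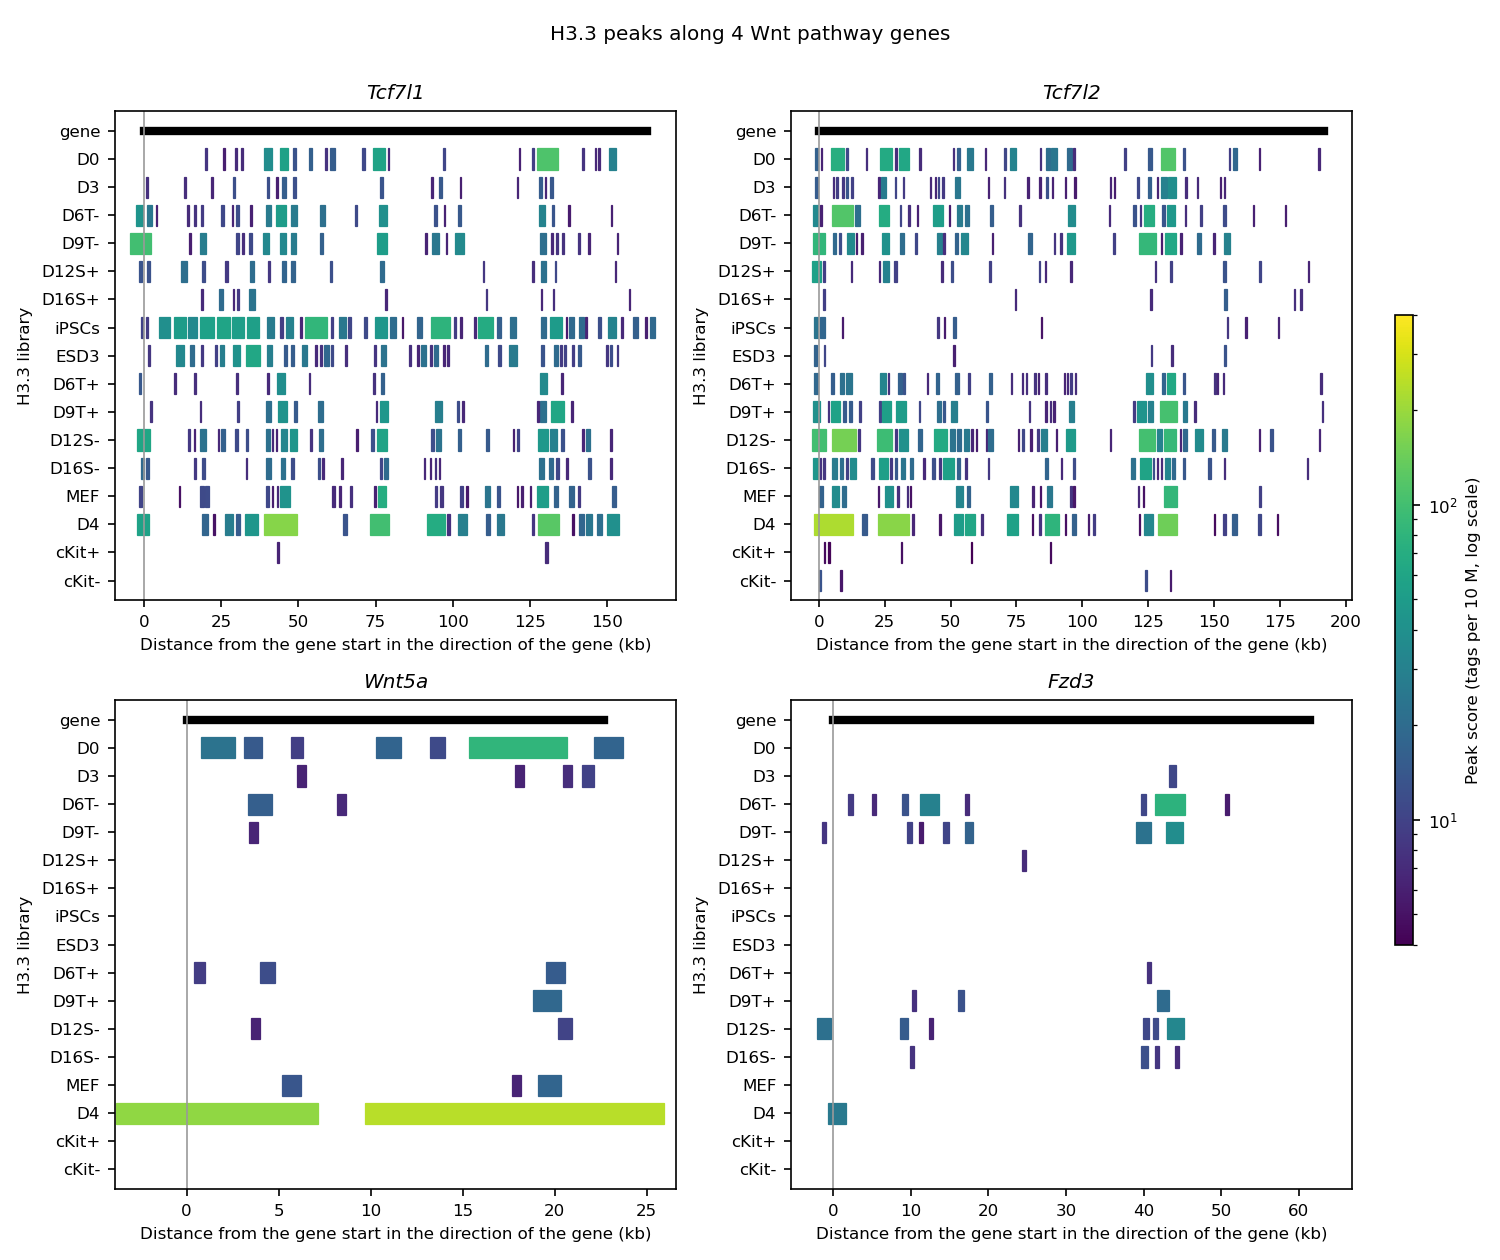
H3.3 peaks along Tcf7l1, Tcf7l2, Wnt5a and Fzd3 in each of the 16 libraries (rows, 1 per group), by distance in kb from the gene start along the gene; the black bar is the gene, bars are peaks drawn at their width with a thin outline, and colour gives the peak score on a log scale. The iPSC and ESD3 rows are densely covered on Tcf7l1 and sparsely on Tcf7l2, Wnt5a is empty from D12S+ to ESD3, and Fzd3 is marked near 43 kb in D6T- and D9T-.

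Tcf7, the factor of T cells, had 106 and 95.7 in D0 and D3, 118 and 64.0 in D6T- and D9T-, 87.3 and 7.47 in D12S+ and D16S+ and 18.3 in iPSCs. It had 43.7 in ESD3, 130 and 49.0 in D6T+ and D9T+ and 230 and 79.2 in D12S- and D16S-, and the second system showed 22.6 and 196 in MEF and D4 and no peak in cKit+ or cKit-. In D6T+, D12S- and D4, 1 Tcf7 peak was shared with another gene, and without it the sums were 24.0, 63.4 and 85.9. MEF (22.6) was close to iPSCs (18.3) and below ESD3 (43.7), so the difference of -2.04 between D0 and iPSCs did not hold between the other pair. Lef1, which is induced in mesenchyme during skin and limb development, had 67.5 and 15.9 in D0 and D3, 32.5 and 17.6 in D6T- and D9T-, 20.7 and 18.9 in D12S+ and D16S+ and 15.2 in iPSCs. It had 7.40 in ESD3, 6.98 and 9.13 in D6T+ and D9T+ and 21.2 and 9.27 in D12S- and D16S-, and in the second system it had 41.6 and 141 in MEF and D4 and 4.90 in cKit+ but no peak in cKit-. Lef1 was below D0 and MEF in every later library but D4, and its D0 to iPSC difference was -1.62 (counting interval -1.91 to -1.33).

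The second comparison sets the fraction labelled successful against the unsuccessful one of the same day. On day 6, 11 genes were called higher in D6T- than in D6T+ (26.4% of all genes) and 3 lower (2.76%). The 11 included 5 of the 10 receptors: Fzd3 with 159 against 7.68, Fzd5 with 96.6 against 10.7, Fzd7 with 148 against 34.2, Fzd9 with 137 against 38.6 and Fzd6 with 17.4 against no peak. Each Fzd9 sum came from 1 peak shared with a neighbouring gene, and inside the window the sums were 18.6 and 0.0930. Apc, Lef1 and Tcf7l1 were also higher, and Fzd2, Wnt2b and Wnt7b were lower. Over all genes with a peak in both fractions the median log2 ratio was 0.77, and measured from it 3 were higher (Fzd3, Fzd5 and Fzd7) and 5 lower, beside 10.3% and 8.66% of all genes.

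On day 9 the fractions were closer. Called higher in D9T- were 3 genes (10.8% of all genes), Fzd3, Fzd6 and Wnt9a, and none lower (4.06%). Measured from the median of genes with a peak in both, 0.26, 2 were higher and 3 lower, beside 7.03% and 7.44% of all genes. With only peaks at least 4-fold over input, 1 was higher and 10 lower, beside 4.06% and 21.9% of all genes. Fzd3 had 111 against 39.9 and Wnt9a 57.0 against 21.4. On day 12 the order turned around: 25 genes were lower in D12S+ than in D12S- (44.9% of all genes) and 1, Wnt7b, was higher (0.822%). The median over genes with a peak in both fractions was -1.45. Measured from it 6 were lower (Fzd2, Fzd3, Fzd9, Lrp6, Wnt4 and Wnt11) and 5 higher (Lef1, Wnt6, Wnt7b, Wnt8a and Wnt8b), beside 10.3% and 7.76% of all genes. On day 16, 12 were lower in D16S+ (34.2%) and 2 were higher, Wnt1 and Wnt7b (2.85%). Measured from the median of genes with a peak in both, -1.11, 7 were lower and 8 higher, beside 12.6% and 11.0% of all genes.

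Some genes differed between fractions in the same way on both late days. Tcf7l2 had 216 in D12S+ against 1059 in D12S-, and 53.6 against 635 on day 16. Lrp6 had 66.0 against 521, and then no peak against 220. Wnt7b went the other way, with 16.7 on day 12 and 19.2 on day 16 in the SSEA-1+ fractions and no peak in either SSEA-1- fraction. The SSEA-1+ libraries had 6.93% and 4.88% of their tags in peaks, and the SSEA-1- ones 22.0% and 12.2%; the part of that in these differences was not tested.

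**Figure D4:**
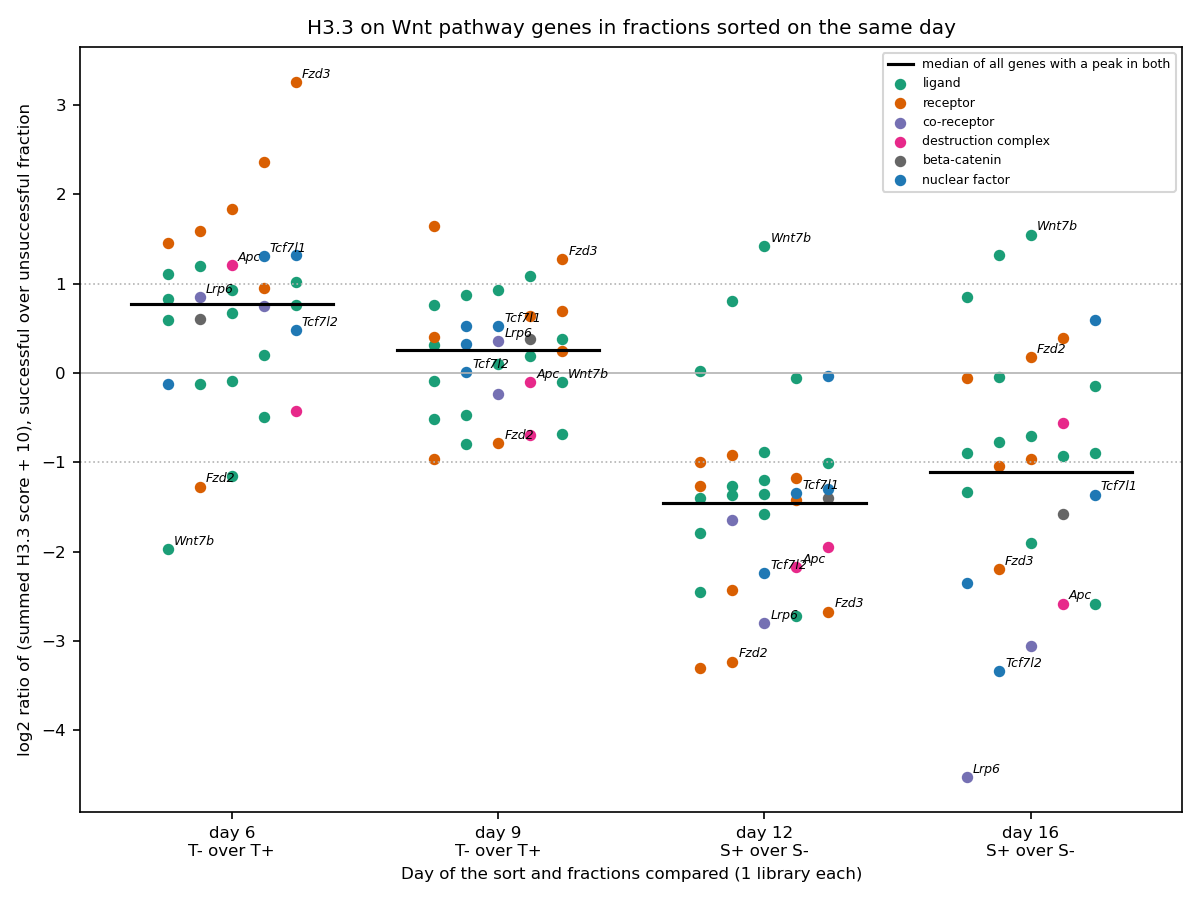
Log2 ratio of the summed H3.3 score plus 10, successful over unsuccessful fraction, on 4 days, with 1 point per gene that had a peak in either library, coloured by role; black lines are medians over all genes with a peak in both, and dotted lines mark 2-fold. The medians go from 0.77 on day 6 to -1.45 on day 12 with most points around them, Fzd3 moves from the top on day 6 to the lower part on days 12 and 16, and Wnt7b does the reverse.

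The third comparison was between libraries of like cells, and it gives the size of difference between libraries of 1 kind. MEF had 11 genes lower than D0 (35.5% of all genes) and 2 higher, Wnt7a and Wnt10a (1.54%). Measured from the median of genes with a peak in both, -1.10, 3 were lower and 9 higher, beside 10.9% and 9.99% of all genes. The 11 lower ones included Apc (18.7 against 171), Axin1 (47.8 against 290) and Ctnnb1 (110 against 529). Without peaks shared with Ulk4, Ctnnb1 had 74.2 in MEF against 103 in D0, less than 2-fold apart. ESD3 had 5 genes lower than iPSCs (26.3% of all genes), namely Apc, Axin1, Axin2, Fzd2 and Wnt11. It had 3 higher (2.44%): Fzd10 with 31.7 against 5.10, Wnt3a with 41.9 against 11.9 and Wnt7b with 42.3 against 11.1. Measured from the median of -0.73, 2 were lower and 8 higher, beside 10.2% and 9.09%. Apc, with 171 in D0 and 156 in iPSCs, thus differed more between libraries of like cells than between those.

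In transdifferentiation, 35 of the 39 genes were higher in D4 than in MEF and none lower, beside 64.3% and 0.197% of all genes. The median over genes with a peak in both was 2.20 in all genes and 2.13 in 28 of these, and D4 had 37.2% of its tags in peaks against 7.64% in MEF. Measured from 2.20, 8 genes were higher (12.2% of all genes): Apc, Axin1, Fzd5, Fzd8, Wnt3a, Wnt4, Wnt5a and Wnt7b. The 4 lower ones (11.8%) were Fzd7, Tcf7l1, Wnt11 and Wnt16. Tcf7l1 went from 396 to 834, while Wnt5a went from 37.5 to 428 and Axin1 from 47.8 to 657. Broad D4 peaks reaching past the genes were part of some of these sums, and Fzd5 and Wnt4 had 118 and 216 inside their windows.

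The cKit fractions held few peaks, with 13 of the 39 genes marked in cKit+ and 9 in cKit- beside 33.2% and 31.8% of all genes. Between them, Lrp6 (90.9 against 38.2) and Tcf7l1 (13.4 against no peak) were called higher in cKit+, where 2.91% of all genes were higher. Fzd1 and Fzd7 were lower, with no peak in cKit+ against 13.3 and 18.4 in cKit-, where 6.49% of all genes were lower. Of the 39 genes, 7 had a peak in both fractions. Among the ligands 3 had a peak in cKit+ (Wnt2b, Wnt5b and Wnt10b) and Wnt5b alone in cKit-.

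H3K4me3 was far more widespread on these genes than H3.3. All 39 carried an H3K4me3 peak in 6 of the 7 libraries and 34 in D16S+, where 3.71% of the tags lay in peaks, while 51.6% to 70.2% of all genes had one. An H3K4me3 peak lay within 1 kb of the start in 36 of 39 genes in D0 and 37 in iPSCs, also at genes such as Wnt9b and Wnt2 that had no H3.3 peak in either library. That was 92.3% and 94.9%, close to the 91.1% and 90.2% of all genes with an H3K4me3 peak. Between D0 and iPSCs, 27 were lower and none higher, beside 47.4% and 2.39% of all genes. The medians were -1.30 for the 39 and -1.26 for all genes with a peak in both, so the group moved with the libraries as wholes.

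In H3K4me3, 4 genes stood at least 2-fold below that median: Wnt5a, Tcf7l2, Fzd1 and Fzd2, beside 5.98% of all genes. Wnt5a had 1006 and 538 in D0 and D3, 476 and 302 in D6T- and D9T-, 121 and 24.7 in D12S+ and D16S+ and 87.7 in iPSCs, Tcf7l2 had 769 and 523 in D0 and D3, 1025 and 660 in D6T- and D9T-, 183 and 39.2 in D12S+ and D16S+ and 124 in iPSCs, and both were among the highest of the 39 in D0. The log2 differences from D0 to iPSCs were -3.38 (counting interval -3.54 to -3.23) and -2.54 (-2.68 to -2.40). Tcf7l1 had 446 and 272 in D0 and D3, 455 and 405 in D6T- and D9T-, 159 and 91.1 in D12S+ and D16S+ and 348 in iPSCs, with a difference of -0.35, and Axin2 had 415 and 230 in D0 and D3, 214 and 136 in D6T- and D9T-, 72.0 and 22.8 in D12S+ and D16S+ and 167 in iPSCs. Axin2 thus kept an H3K4me3 peak in every library of the route in which its H3.3 had no peak. This was not particular to Axin2, as 34 of the 39 genes had an H3K4me3 peak in all 7 libraries (49.2% of all genes). Fzd3 had 147 and 141 in D0 and D3, 208 and 148 in D6T- and D9T-, 43.1 and 12.6 in D12S+ and D16S+ and 37.3 in iPSCs. It was highest in D6T-, the H3K4me3 library with the most tags in peaks (34.8%). Ctnnb1, Apc, Lrp5, Lrp6, Tcf7l1 and Tcf7l2 were also highest there, while Wnt5a, Axin2 and Lef1 were highest in D0. Wnt8a and Wnt9b were the 2 genes at least 2-fold above the median (8.54% of all genes), with 29.4 and 49.2 in iPSCs beside 24.1 and 45.9 in D0.

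The other named genes lay nearer to that median. Ctnnb1 had 336 and 279 in D0 and D3, 472 and 345 in D6T- and D9T-, 130 and 63.0 in D12S+ and D16S+ and 165 in iPSCs and Apc 375 and 277 in D0 and D3, 440 and 277 in D6T- and D9T-, 85.2 and 22.5 in D12S+ and D16S+ and 139 in iPSCs. Lrp6 had 287 and 209 in D0 and D3, 342 and 246 in D6T- and D9T-, 81.9 and 35.4 in D12S+ and D16S+ and 62.9 in iPSCs, and Lrp5 208 and 144 in D0 and D3, 228 and 151 in D6T- and D9T-, 54.1 and 8.85 in D12S+ and D16S+ and 78.7 in iPSCs. Lef1 had 327 and 233 in D0 and D3, 262 and 178 in D6T- and D9T-, 133 and 75.9 in D12S+ and D16S+ and 99.7 in iPSCs. In all of these D16S+ was the lowest library, and in all but Lef1 and Lrp6 the iPSC value was again above D12S+; Lef1 went from 133 to 99.7 and Lrp6 from 81.9 to 62.9. In D0, 82 of the 178 H3.3 peaks on the 39 genes met an H3K4me3 peak (46.1%, beside 29.8% for all protein-coding genes), and in iPSCs 60 of 158 did (38.0%, beside 34.9%). At Lrp6, 1 of 19 D0 peaks did.

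H3K36me3 was found on 16 of the 39 genes in D0, 14 in iPSCs and 7 in D12S+, beside 49.7%, 34.7% and 23.5% of all genes. Ctnnb1, Apc, Axin1, Lrp6 and Tcf7l2 carried it in all 7 libraries, as did 14.5% of all genes. In 17 genes there was none in any library, 12 of them ligands, together with Fzd4, Fzd8, Fzd9, Fzd10 and Lef1, beside 41.8% of all genes. No H3K36me3 peak lay within 1 kb of a start site of these genes. Of all genes with an H3K36me3 peak, 6.47% in D0 and 5.74% in iPSCs had one there. Between D0 and iPSCs, 12 genes were lower (43.6% of all genes) and 3 higher (1.53%). The median over all genes with a peak in both was -2.74, and 42.4% of the tags lay in peaks in D9T- but 1.07% in D12S+ and 2.88% in iPSCs, so values for this mark are given as levels only.

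Tcf7l2 had 816 and 198 in D0 and D3, 134 and 995 in D6T- and D9T-, 6.40 and 7.58 in D12S+ and D16S+ and 6.38 in iPSCs. Wnt5a had 262 and 82.2 in D0 and D3, no peak in D6T- or D9T-, no peak in D12S+ or D16S+ and no peak in iPSCs. Fzd3 had no peak in D0 or D3, 6.50 and 141 in D6T- and D9T-, 7.96 in D16S+ but no peak in D12S+ and no peak in iPSCs. No H3K36me3 peak was called on Wnt5a after D3. D9T-, where Fzd3 was highest, was also the highest library for Tcf7l2. Lrp6 had 857 and 244 in D0 and D3, 130 and 1048 in D6T- and D9T-, 44.1 and 36 in D12S+ and D16S+ and 31.1 in iPSCs. Ctnnb1 had 348 and 172 in D0 and D3, 253 and 481 in D6T- and D9T-, 41.6 and 17.1 in D12S+ and D16S+ and 91.5 in iPSCs, and in D0, D6T- and D9T- nearly all of it came from peaks that also reached Ulk4. Tcf7l1 had 170 and 20.5 in D0 and D3, 7.29 and 173 in D6T- and D9T-, 12.6 in D12S+ but no peak in D16S+ and 108 in iPSCs, and was thus above Tcf7l2 in iPSCs although far below it in D0. Tcf7, Wnt5b and Wnt7b were the 3 genes called higher, with 27.0, 13.8 and 41.1 in iPSCs and no peak in D0, and both Wnt5b peaks also lay on Fbxl14.

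**Figure D5:**
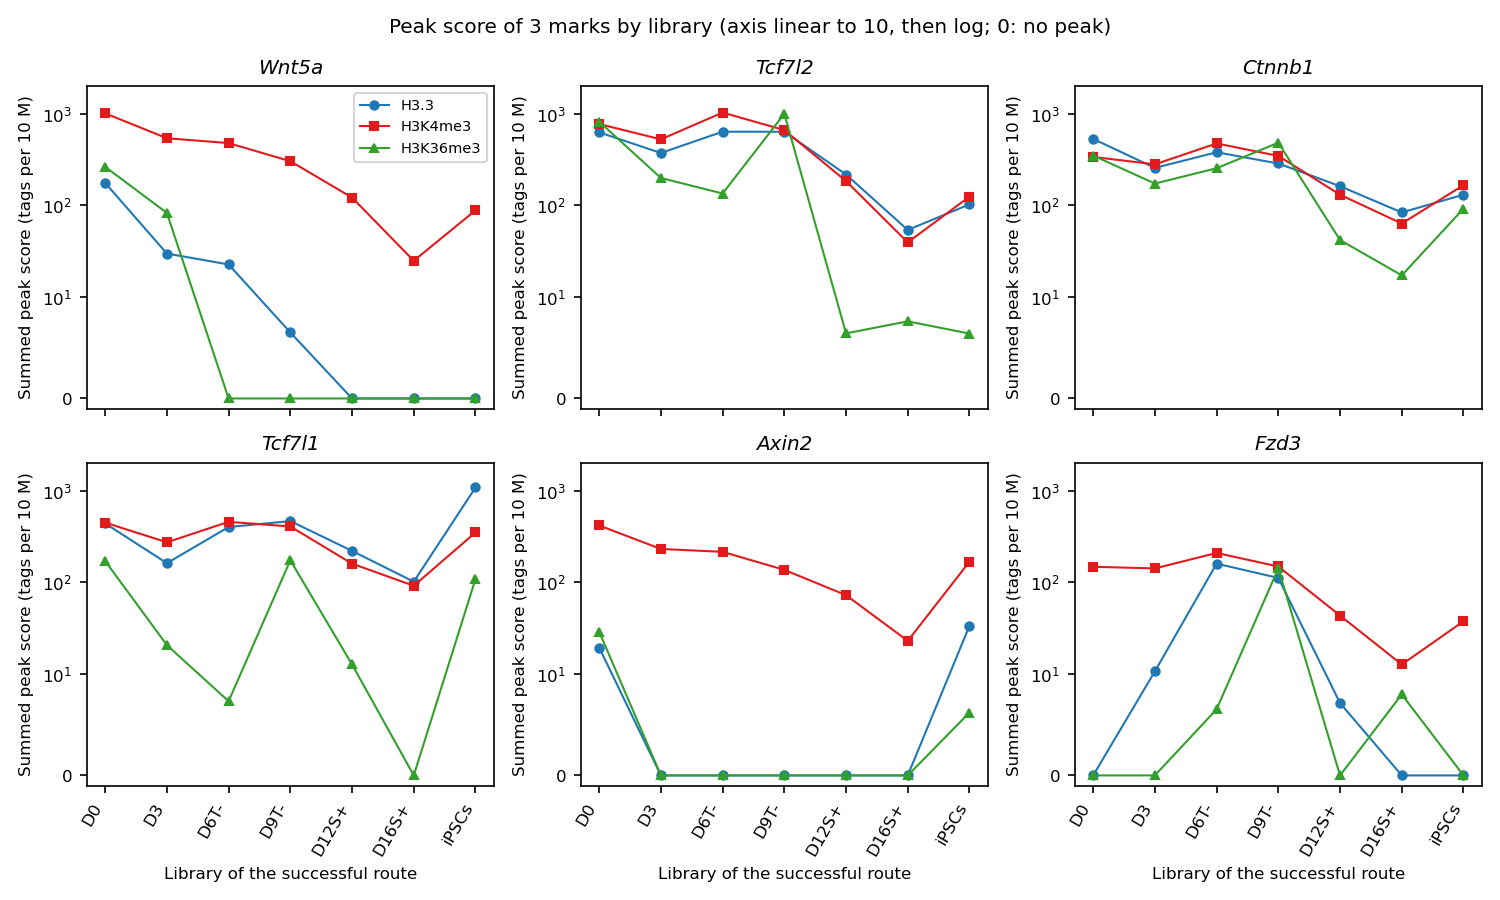
Summed peak score (tags per 10 M; axis linear to 10 and logarithmic above) of H3.3, H3K4me3 and H3K36me3 on 6 genes in the 7 libraries of the successful route, 1 library per point, with 0 for no peak. Wnt5a keeps H3K4me3 (87.7 in iPSCs) after its H3.3 and H3K36me3 peaks have gone, Axin2 has H3.3 at both ends only, and Fzd3 has its H3.3 on days 3 to 12.

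Other genes of the pathway were counted from 2 lists. Of 28 secreted and membrane regulators, 9 were lower and 4 higher in H3.3 from D0 to iPSCs, with a median log2 ratio of -0.44, and of 22 cytoplasmic and nuclear regulators 9 were lower and 4 higher, with a median of -0.90. Of all genes, 24.4% were lower and 12.6% higher, with a median of 0.00 over all and -0.44 over those with a peak in both libraries. The largest losses among the first were Dkk3, a secreted protein of the Dickkopf family, with 242 in D0 and 5.35 in iPSCs, and Wls, the carrier that brings Wnt ligands to the cell surface, with 372 and 14.5. Both were lower in ESD3 too, where neither had a peak. The largest gains were Rnf43, a ubiquitin ligase that removes frizzled receptors, with 7.98 and 153, and Kremen2, a receptor for Dickkopf proteins, with no peak and 29.9. In ESD3 they had 31.7 and 7.17.

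Among the cytoplasmic and nuclear regulators, Dvl1, which relays the signal from frizzled receptors, had 206 in D0 and 13.4 in iPSCs, and Nkd1, an inhibitor of Dvl proteins, had 73.7 and 6.92. The largest gains were Tle4 and Tle2, co-repressors that bind TCF factors, with 39.9 and 226 for Tle4 and 12.6 and 79.8 for Tle2. In ESD3 Tle4 had 97.6 and Tle2 29.1, both above MEF, where Tle4 had 33.6 and Tle2 no peak. For Dvl1, MEF had 21.2 and ESD3 18.5, so the loss of Dvl1 rested on D0. H3K4me3 on the 2 lists was lower in 19 of 28 and 17 of 22 genes and higher in none, beside 47.4% and 2.39% of all genes.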

How the data were processed

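Chromatin was immunoprecipitated for H3.3 (16 libraries), H3K4me3 (7) and H3K36me3 (7) and sequenced; 16 input libraries served the authors as controls and are not analysed here. The authors aligned reads to mm9 with STAR and called peaks per library with HOMER against input, at a minimum of 2-fold over input for H3.3 and 4-fold for the other marks; versions are not given in the sources used here. The deposited peak lists give a tag count as signal, scaled by the authors to 10 M tags with input not subtracted, and a ratio (fold over control).

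Peak scores were summed over each of 22380 protein-coding genes of GENCODE vM1, extended by 1 kb, with Python 3.11.15, numpy 2.4.6, pandas 2.3.3 and scipy 1.17.1. Log2 ratios used a pseudocount of 10 and a 2-fold limit. Counting intervals were exact Poisson intervals, which cover counting error only. Each group had 1 library, so no difference has a replicate check and no p-value is given. A wider or deeper library gives larger sums. The sums were checked on simulated peaks. Named genes were all co-receptors, destruction complex genes, Ctnnb1 and nuclear factors, and, among ligands and receptors, the 3 with the largest change from D0 to iPSCs and the one with the highest sum; other members are given by range or were named after their values were seen. The members and lists were chosen with earlier results of these data known. Alternatives were an equal number of top peaks, a higher fold over input, scores by the share of a peak in the window, a pseudocount of 5, no flanks and centring on the median; leaving out shared peaks, MEF for D0 and ESD3 for iPSCs were added after seeing the data. Promoter and peak sequences came from the mm9 genome.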

Additional observations from a re-analysis of the deposited data

Results flagged for a closer look

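In 3 genes the H3.3 difference between the successful and the unsuccessful fraction changed direction between days. All values are log2 ratios of the summed score plus 10, measured from the median of all genes with a peak in both fractions; each rests on 1 library per fraction, and the change of direction was not tested. For Fzd3 the value was 2.49 on day 6 and 1.02 on day 9, both in the Thy-1 sorts, and -1.22 on day 12 and -1.07 on day 16, both in the SSEA-1 sorts. For Wnt7b it was -2.73 on day 6, 2.86 on day 12 and 2.66 on day 16. The Wnt7b values of days 12 and 16 set small sums against no peak, and the medians subtracted there were -1.45 and -1.11. For Fzd2 the value was -2.04 on day 6, -1.04 on day 9, -1.78 on day 12 and 1.30 on day 16. On day 16 the Fzd2 sums were close, 44.3 in D16S+ (counting interval 35.3 to 54.9) and 37.8 in D16S- (29.6 to 46.9). Most of its 1.30 thus came from subtracting the median of -1.11. The surface marker sorted on changed between days 9 and 12, so day and marker cannot be told apart.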

How the results depend on the processing

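Of the counts of genes recomputed under an alternative, 159 of 214 stayed within 1.5 times the value reported and 55 moved; of the log2 ratios of named genes, 53 of 126 stayed, 71 moved and 2 changed sign. Fzd2 turned to 1.06 without flanks and Tcf7l1 to -1.53 with peaks at least 4-fold over input; the causes were not tested. The shares of all genes changed with the setting too. With the higher fold over input, 0.0402% of all genes were higher and 45.4% lower in MEF over D0. For D9T- over D9T+ these shares were 4.06% and 21.9%. Counts of these genes are given below as higher and lower, with the shares of all genes in brackets. Counts of genes with peaks, and the count without shared peaks, are given without such shares. Centred on the median, they were 10 higher from D0 to iPSCs (19.7%), 3 and 5 on day 6 (10.3% and 8.66%) and 3 lower on day 9 (7.44%). Later fractions gave 5 and 6 on day 12 (7.76% and 10.3%) and 8 and 7 on day 16 (11.0% and 12.6%). MEF over D0 gave 9 and 3 (9.99% and 10.9%), ESD3 over iPSCs 8 and 2 (9.09% and 10.2%) and D4 over MEF 8 and 4 (12.2% and 11.8%). For H3K4me3 they were 2 and 4 (8.54% and 5.98%), and for H3K36me3 10 and 4 (15.5% and 13.5%). With the higher fold over input, they were 0 higher from D0 to iPSCs, 1 and 10 on day 9, 2 higher on day 12, 0 and 24 in MEF over D0, 8 and 3 in ESD3 over iPSCs, 1 higher for H3K4me3 and 0 and 4 for H3K36me3, with peaks on 16 genes in D9T- and 19 in iPSCs. With an equal number of top peaks, they were 4 lower on day 9 (6.18%) and 4 higher on days 12 and 16 (2.63% and 5.12%). MEF over D0 gave 4 higher (4.36%), ESD3 over iPSCs 7 and 3 (5.32% and 23.1%) and H3K36me3 1 higher (3.94%). Peaks remained on 20 genes in D12S- and 15 in iPSCs. With a pseudocount of 5, they were 9 higher from D0 to iPSCs (16.2%), 7 and 3 on day 9 (15.6% and 7.05%) and 2 higher on day 12 (2.23%). MEF over D0 gave 4 higher (4.01%) and ESD3 over iPSCs 11 lower (33.1%). By the share of a peak in the window, 3 were higher from D0 to iPSCs (11.7%), 1 lower on day 6 (2.54%) and 1 lower in cKit+ over cKit- (5.71%). Without flanks, 1 was lower on day 6 (2.97%), 1 on day 9 (4.36%), and 1 higher and 1 lower in cKit+ over cKit- (2.54% and 5.18%). With MEF in place of D0, 9 were higher in iPSCs (28.9%), and without peaks shared with another gene 2 were lower in D4 over MEF. Peaks missing from shallow or weakly enriched libraries, above all cKit+, cKit-, D16S+ and D12S+, are not shown to be absent. No paired analysis was possible because each group had 1 library.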
